A study of Rattus norvegicus with 36 samples.

Results

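The RNA levels of 10 heat shock chaperone genes were followed in cultured rat alveolar macrophages exposed to particles. They were taken by symbol from the deposited table: 8 encode cytosolic chaperones (Hsp90aa1, Hsp90ab1, Hspa4, Hspa8, Hsph1, Dnaja1, Dnajb1 and Hspb1) and 2 encode the mitochondrial chaperonin (Hspd1 and Hspe1). All 10 members had a row among the 23487 rows of the table, and all 10 were among the 14606 genes that passed the filter on low counts. They were chosen with their overload values in these data already known, so their values are given as a description. No p-value of a member is printed, and calls of members by a p-value threshold are a description as well.

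The cells were primary alveolar macrophages, phagocytes that clear inhaled particles from the air spaces, taken from male rats of the F344 strain. Their RNA was sequenced after 4 days of exposure within 5 days of culture. The particles were G1-1, G3-1 and Bayertitan, which are titanium dioxides, and Printex90, a carbon black. For each particle there were an overload group, a non-overload group and a control group of its own, with 3 replicates in each, which gave 12 groups and 36 libraries. The particle doses, the age of the rats and any pooling of animals were not stated in the sources used here, and the cells were studied outside the lung, without the other cells of the airway. The replicates are called biological in the labels, which do not state whether each stands for an animal or a culture of its own. The p-values therefore cover the spread among these libraries alone, which may be technical.

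Chaperones bind unfolded or partly folded proteins, keep them from aggregating and help them to fold. In the cytosol, HSP40 proteins deliver clients to HSP70, nucleotide exchange factors of the HSP110 family reset HSP70, and HSP90 with its co-chaperones completes the folding of kinases, receptors and other signalling proteins. In the mitochondrial matrix, HSP60 and its lid HSP10 form a closed folding chamber. Heat shock factor 1 drives the transcription of many of these genes when unfolded proteins build up, by binding heat shock elements, which are inverted repeats of the unit GAA.

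The promoter sequences are shown first because the members differ in that element where a sequence was at hand. RefSeq promoter windows of the GRCr8 assembly, from 250 bases before to 50 bases after the start, were found for 9 of the 10 members. Hsp90aa1 had no window, so whether it holds the element was not examined. A 3-unit element (GAA, TTC and GAA, or TTC, GAA and TTC, with any 2 bases between neighbouring units, which together cover both strands) was present in the windows of 5 members, Hspa8, Hsph1, Dnaja1, Hspd1 and Hspe1, against 0.798% of all 33469 windows. Among the genes of the other chaperone lists described below, 64 had a window and 2 had a 3-unit element. In Dnaja1 the 3-unit element lay after the start, from base 9 to base 21. A 2-unit element (GAANNTTC or TTCNNGAA, which also lies inside every 3-unit element) was present in 7 members, the same 5 with Dnajb1 and Hspb1, against 15.9% of all windows. Neither was found in the windows of Hsp90ab1 and Hspa4. Hspd1 and Hspe1 lie head to head on chromosome 9 with 289 bases between their starts, and their windows share 211 bases, so a single element stands in both. The sequences below run 5′ to 3′ on the strand of the gene, and capitals mark the element. The Hsph1 window is chr12:10427308-10427367 on the plus strand, the upstream and downstream Hspa8 windows are chr8:50080277-50080337 and chr8:50080435-50080495 on the plus strand, the Hspe1 window, which holds the element shared with Hspd1, is chr9:64084238-64084303 on the plus strand, and the Hspb1 window, with a pair of separate 2-unit elements, is chr12:26432379-26432454 on the minus strand.
Hsph1: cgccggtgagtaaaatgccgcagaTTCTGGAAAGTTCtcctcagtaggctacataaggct
Hspa8, upstream: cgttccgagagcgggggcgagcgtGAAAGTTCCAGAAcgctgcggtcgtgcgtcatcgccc
Hspa8, downstream: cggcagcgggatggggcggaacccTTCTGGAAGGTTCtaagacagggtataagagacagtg
Hspe1: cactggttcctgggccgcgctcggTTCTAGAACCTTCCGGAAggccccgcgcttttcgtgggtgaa
Hspb1: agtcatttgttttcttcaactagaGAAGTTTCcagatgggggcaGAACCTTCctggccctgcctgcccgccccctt

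Library totals were 26.1 to 43.2 M counts, and the members were covered by 1121 to 64915 counts in each library, the fewest for Hspe1 and the most for Hsp90ab1. Levels are given as CPM (counts scaled to the library total) after TMM scaling, which allows comparison of a gene between libraries but not of different genes with each other. Of 10 alveolar macrophage markers, 9 had a row, and their summed level was 6750 to 9630 CPM, although Marco, a scavenger receptor usually found on these cells, had 1.09 CPM at most. Epithelial markers summed to 1110 to 2220 CPM and fibroblast markers to 16.1 to 414 CPM, and 8 of the 36 libraries had more than 10 CPM of the collagen gene Col3a1, among them G1-1 overload replicate 2. Neutrophil markers summed to 13.4 CPM at most, lymphocyte markers to 5.86 CPM, endothelial markers to 33.6 CPM and erythroid markers to 0.0638 CPM.

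In G1-1 overload cells, 6 of the 8 cytosolic chaperone genes were lower than in G1-1 control cells. The HSP90 pair, both HSP110 genes, the HSP70 gene Hspa8 and the HSP40 gene Dnaja1 were lower, the small heat shock gene Hspb1 was higher, and Dnajb1 stayed within 1.02 times its control level. Counted by an adjusted p under 0.05 in edgeR's quasi-likelihood test, 7 of the 10 members were lower and 1 was higher, beside 28.1% of all tested genes called in either direction, 14.4% lower and 13.7% higher. The median log2 fold change of the 10 members was -0.24, and that of all genes tested was -0.02. As the genes were chosen with this comparison known, nothing is read from the count. In bulk samples such as these, fewer cells of a type and less RNA per cell cannot be told apart.

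Hsp90ab1, the constitutive cytosolic HSP90, had 1041, 1083 and 1047 CPM in G1-1 overload libraries, against 1475, 1497 and 1531 CPM in G1-1 control libraries. Its G1-1 overload libraries were the lowest of the study, since the other 33 libraries lay between 1410 and 1540 CPM. Its level in G1-1 overload was 0.704 times that in control, a log2 fold change of -0.51 ± 0.03 (SE). Hsp90aa1, the stress-inducible HSP90, had 641, 613 and 598 CPM in G1-1 overload libraries, against 807, 871 and 870 CPM in control libraries. Its 3 overload libraries also lay below the other 33, which ran from 738 to 902 CPM, and its log2 fold change was -0.46 ± 0.04. The 3 G1-1 non-overload libraries lay between the other G1-1 groups for this gene, at 754, 738 and 790 CPM.

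Hsph1, the HSP110 protein that resets HSP70, had 103, 99.5 and 99.4 CPM in G1-1 overload libraries, against 138, 134 and 143 CPM in control libraries. Its log2 fold change was -0.45 ± 0.04, and its overload libraries again lay below all 33 others, the lowest of which had 116 CPM. Hspa4, a second HSP110-type gene, had 284, 268 and 271 CPM in overload libraries and 317, 320 and 313 CPM in control libraries. The G1-1 groups did not overlap, with a log2 fold change of -0.21 ± 0.04, as was the case lower for 19.9% of all genes tested, but G3-1 overload replicate 3 (275 CPM) and G1-1 non-overload replicate 2 (282 CPM) lay within the overload range. Hspa8, the constitutive HSP70 that also uncoats clathrin vesicles and serves chaperone-mediated autophagy, had 120, 105 and 131 CPM in overload libraries, against 147, 139 and 147 CPM in control libraries. Its log2 fold change was -0.28 ± 0.07, with a wider spread among the overload libraries than for the HSP110 genes Hsph1 and Hspa4.

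The HSP40 genes had unlike values. Dnaja1, which feeds clients to HSP70, had 107, 107 and 92.4 CPM in G1-1 overload libraries, against 127, 137 and 132 CPM in control libraries, a log2 fold change of -0.37 ± 0.05. Its 3 overload libraries lay below all 33 others, so that 4 of the 10 members (Hsp90aa1, Hsp90ab1, Hsph1 and Dnaja1) had this pattern, beside 7.31% of all genes tested. Dnajb1, a strongly heat-inducible HSP40, had 51.2, 51.0 and 51.5 CPM in overload libraries and 50.3, 49.8 and 50.9 CPM in control libraries. The groups stood within 1 CPM of each other on average, and its log2 fold change was 0.02 ± 0.04. Hspb1, the small heat shock protein HSP27, which holds unfolded proteins and binds actin, had 67.0, 70.5 and 78.6 CPM in overload libraries, against 56.4, 55.5 and 64.0 CPM in control libraries. Its log2 fold change was 0.30 ± 0.09, and the call was lost without control replicate 1 (0.28), without control replicate 2 (0.25) or without overload replicate 3 (0.24).

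The mitochondrial pair had log2 fold changes nearer to 0 than the HSP90 genes. Hspd1, the HSP60 subunit, had 333, 307 and 308 CPM in G1-1 overload libraries, against 343, 348 and 349 CPM in control libraries, and the groups did not overlap. Its log2 fold change was -0.13 ± 0.04. The call was lost without overload replicate 2 or without overload replicate 3 (both -0.11), and under another of the alternative settings. Hspe1, the HSP10 lid, had 40.4, 37.4 and 38.1 CPM in overload libraries, against 39.9, 41.9 and 45.9 CPM in control libraries. These groups overlapped, and its log2 fold change of -0.14 ± 0.09 did not pass the threshold.

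**Figure D1:**
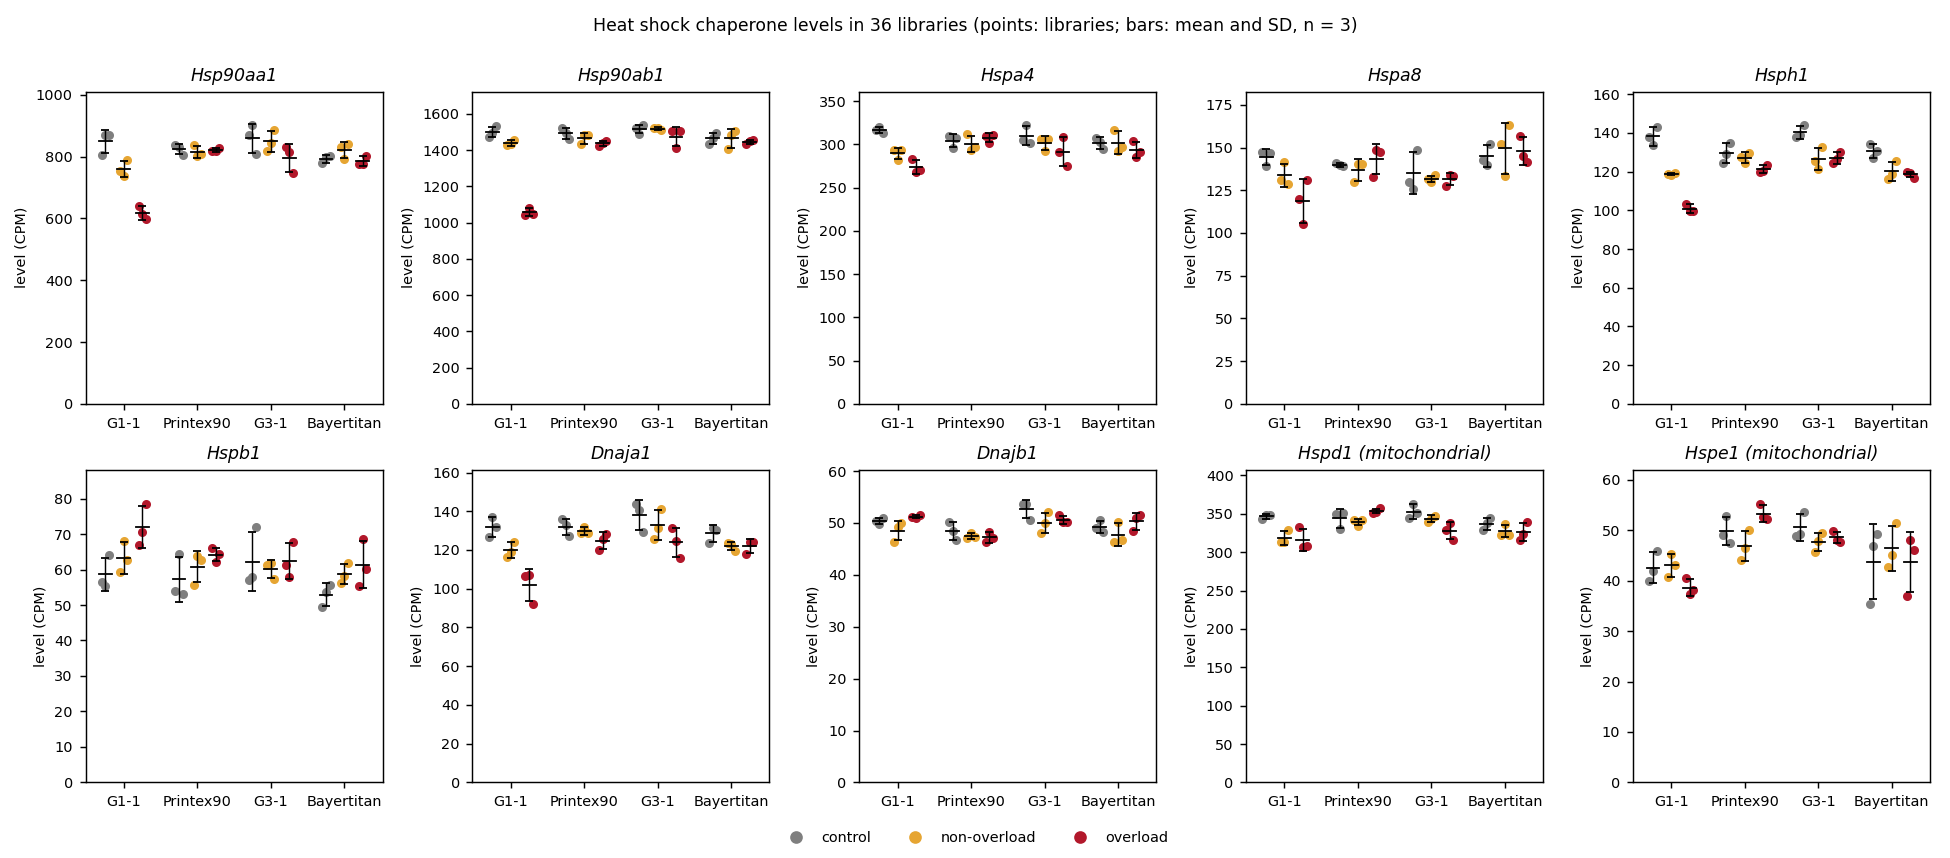
Level (CPM, linear axis from 0) of the 10 chaperone genes by particle, with control, non-overload and overload libraries as points and the mean and SD of 3 libraries as bars. The 3 G1-1 overload points of Hsp90aa1, Hsp90ab1, Hsph1 and Dnaja1 lie below all other points of their gene.

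Each member's level was ordered over the 12 groups. For Hsp90ab1 the lowest group was G1-1 overload, with a mean of 1060 ± 22.7 CPM (SD, n = 3), followed by Printex90 overload at 1440 ± 12.2 CPM, and all neighbours from there up to G3-1 non-overload at 1520 ± 5.75 CPM stood closer together than the SD of the wider-spread group. For Hsph1 the order ran from G1-1 overload (101 ± 2.28 CPM) to G3-1 control (140 ± 3.23 CPM). Above G1-1 overload, the only neighbours in this order that stood apart by more than the larger SD were Bayertitan control (131 ± 3.75 CPM) and G1-1 control (138 ± 4.68 CPM). Hspe1 had its highest group mean in Printex90 overload (53.3 ± 1.69 CPM) and its lowest in G1-1 overload (38.6 ± 1.61 CPM). Dnajb1 was the flattest, with library values from 46.3 to 53.7 CPM, the highest 1.16 times the lowest, closely followed by Hspd1 at 1.18 times. In the orders of Dnajb1, Hspa8 and Hspd1, no neighbours stood apart by more than the larger SD.

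Epithelial markers summed to 1200 to 1770 CPM in G1-1 overload and 1590 to 2140 CPM in G1-1 control libraries, ranges that overlapped. Of the 10 tested, 2 were lower in G1-1 overload and the others were not called, with a median log2 fold change of -0.52. In Printex90 overload 3 of the 10 were lower, with a median of -0.54. In G3-1 and Bayertitan overload 0 were called, with medians of -0.33 and -0.07. Sftpc, which marks type II cells, was at 0 in G1-1 overload and G1-1 control libraries. With the epithelial marker level as a covariate, the G1-1 overload log2 fold change was -0.53 for Hsph1, -0.38 for Hspa8 and -0.27 for Dnaja1. The value of Hspb1 (0.28) no longer passed the threshold. Fibroblast markers summed to 22 to 104 CPM in G1-1 overload and 21 to 25.1 CPM in control libraries. Over the 15 alternative settings, Hsp90ab1 lay between -0.52 and -0.48 and Hsp90aa1 between -0.49 and -0.41. Alveolar macrophage markers summed to 7200 to 8590 CPM in G1-1 overload and 7450 to 8150 CPM in control libraries.

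No member was called in overload against control of Printex90, G3-1 or Bayertitan by edgeR, where 14.8%, 0.568% and 0.329% of all tested genes were called. At an unadjusted p under 0.05 the members counted were 1 of 10 for Printex90, 5 of 10 for G3-1 and 2 of 10 for Bayertitan, beside 28.9%, 12.4% and 7.63% of all genes tested. DESeq2 called 0, 1 and 1, in both cases Hsph1. With the epithelial marker level as a covariate, edgeR called Hsph1 with each of these particles, and with the fibroblast marker level it called Hsph1 with Printex90 and G3-1. Hsp90ab1 averaged 1440 ± 12.2 CPM in Printex90 overload and 1490 ± 31.1 CPM in Printex90 control libraries (SD, n = 3 each), a log2 fold change of -0.05 ± 0.03. For Hsp90aa1 the log2 fold changes were -0.01 ± 0.04 with Printex90, -0.11 ± 0.04 with G3-1 and -0.02 ± 0.04 with Bayertitan. For Hsph1 they were -0.09 ± 0.04, -0.14 ± 0.04 and -0.14 ± 0.04 in the same order, so that its value was below 0 with every particle. Hsph1 had 119.6, 119.2 and 116.9 CPM in Bayertitan overload libraries, against 134.4, 127.0 and 130.6 CPM in Bayertitan control libraries, which do not overlap, as was the case lower for 7.76% of all genes tested.

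Hspb1 had log2 fold changes of 0.17 ± 0.09 with Printex90, 0.00 ± 0.09 with G3-1 and 0.22 ± 0.09 with Bayertitan beside the 0.30 of G1-1. Its Printex90 overload libraries had 66.0, 62.2 and 64.4 CPM and its control libraries 54.1, 64.4 and 53.1 CPM, so that these groups overlapped. The mitochondrial genes were scattered around 0, with Hspd1 at 0.04 ± 0.04, -0.11 ± 0.04 and -0.05 ± 0.04 and Hspe1 at 0.10 ± 0.09, -0.06 ± 0.09 and 0.00 ± 0.09 for Printex90, G3-1 and Bayertitan. Averaged over the 4 particles, 6 members were lower and 1 was higher, beside 31.9% of all genes called. With the epithelial marker level as a covariate, Hspb1 (0.16) and Hspd1 (-0.07) were no longer called in this mean, and Hspa8 (-0.13) was called lower. The mean of Hsph1 was -0.21 ± 0.02 and that of Hsp90ab1 -0.16 ± 0.02, a mean that contains the larger G1-1 value.

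**Figure D2:**
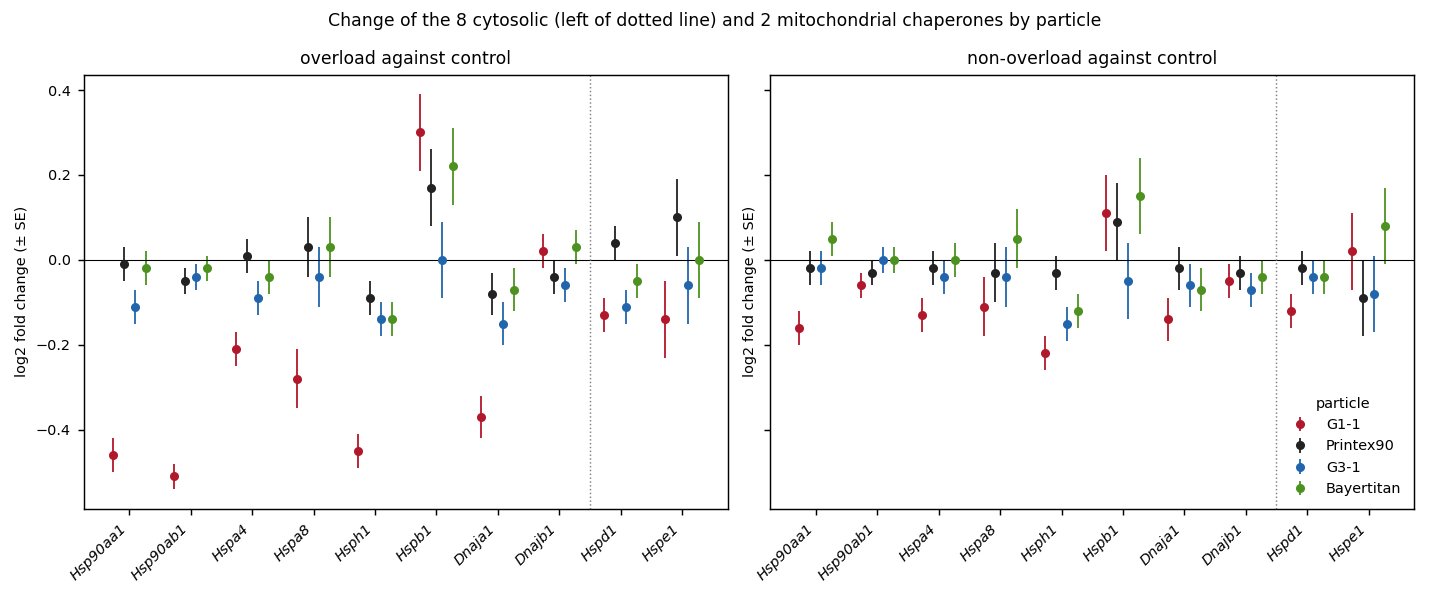
Log2 fold change with its SE (bars) of the 10 chaperone genes for each particle, overload against control on the left and non-overload against control on the right, with the mitochondrial genes to the right of the dotted line. With overload, G1-1 stands below the other particles for Hsp90aa1, Hsp90ab1, Hspa4, Hspa8, Hsph1 and Dnaja1. It is also lowest for the mitochondrial genes, Hspd1 (-0.13, beside -0.11 for G3-1) and Hspe1 (-0.14, beside -0.06 for G3-1), where its SE bars overlap those of G3-1.

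The overload responses were also set against each other. Between G1-1 and Printex90, 7 members were called, all with the lower value in G1-1, beside 11.1% of all genes, and the same count was 3 against G3-1 (9.28% of all genes) and 5 against Bayertitan (12.3%). The G1-1 response of Hsp90ab1 was lower by a log2 difference of -0.45 ± 0.05 against Printex90, -0.47 ± 0.05 against G3-1 and -0.49 ± 0.05 against Bayertitan. These differences hold the G1-1 overload values by which the genes were chosen and are a description. No member was called between the other particles by edgeR, where 0.644% (Printex90 minus G3-1), 1.18% (Printex90 minus Bayertitan) and 0% (G3-1 minus Bayertitan) of all genes were called. There the count at an unadjusted p under 0.05 was 1, 0 and 0 members, beside 9.41%, 11.8% and 3.87% of all genes, and DESeq2 called 0 in each.

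Non-overload against control was a comparison in which the overload libraries took no part, but it shares the control libraries with the overload values by which the genes were chosen. Its values for the members are therefore a description as well. With G1-1, 1 member, Hsph1, passed the threshold in edgeR and was lower, beside 0.459% of all genes called. At an unadjusted p under 0.05 there were 5 members, beside 10.2% of all genes, and DESeq2 called 3. It had 118.9, 118.5 and 119.4 CPM in non-overload libraries, against 138.0, 133.5 and 142.9 CPM in control libraries, a log2 fold change of -0.22 ± 0.04. All 3 non-overload libraries were below all 3 control libraries, which held lower for 8.2% of all genes tested. The call was lost when control replicate 3 (-0.19) or non-overload replicate 2 (-0.21) was left out, and when the G1-1 libraries were fitted alone (-0.21). The next in size were Hsp90aa1 (-0.16 ± 0.04), Dnaja1 (-0.14 ± 0.05) and Hspa4 (-0.13 ± 0.04), which edgeR did not call.

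With the other particles no member was called in non-overload against control by edgeR, where 0.205% (Printex90), 0% (G3-1) and 0.335% (Bayertitan) of all genes were called. The count at an unadjusted p under 0.05 was 0, 1 and 1 members, beside 6.76%, 5.49% and 10.3% of all genes, and DESeq2 called 0 in each. Hsph1 again had values below 0, at -0.03 ± 0.04 with Printex90, -0.15 ± 0.04 with G3-1 and -0.12 ± 0.04 with Bayertitan. Over the 4 particles its mean was -0.13 ± 0.02, and it was the 1 member called by edgeR in the mean non-overload response, beside 4.94% of all genes, where DESeq2 called 2. Between the exposed groups, 4 members were lower in G1-1 overload than in G1-1 non-overload (Hsp90ab1 at -0.45, Hsp90aa1 at -0.30, Hsph1 at -0.24 and Dnaja1 at -0.23), beside 22.7% of all genes. In the same comparison of Printex90, G3-1 and Bayertitan, where 3.51%, 0.0274% and 0% of all genes were called, edgeR called no member, the count at an unadjusted p under 0.05 was 0, 1 and 0, beside 18%, 7.11% and 3.79% of all genes, and DESeq2 called 0 in each. In G1-1, Hsp90ab1 thus differed mostly between non-overload and overload, while Hsph1 took a similar step from control to non-overload and from there to overload.

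The cytosolic and mitochondrial members were set against each other in each library, as the mean log2 CPM of the 8 cytosolic genes minus that of Hspd1 and Hspe1. This difference was 0.65 ± 0.05 in G1-1 overload, against 0.76 ± 0.03 in G1-1 control libraries (SD, n = 3 each), and 0.71 ± 0.02 in G1-1 non-overload libraries. It was 0.53 ± 0.04 in Printex90 overload and 0.61 ± 0.01 in Printex90 control libraries. In G3-1 it was 0.64 ± 0.03 in both overload and control, and in Bayertitan it was 0.72 ± 0.11 in overload and 0.70 ± 0.12 in control libraries. The change was -0.11 in G1-1 and -0.08 in Printex90, beside an SD within groups of 0.056 pooled over the 12 groups. In Printex90 the mitochondrial mean was 7.10 ± 0.02 in overload and 7.03 ± 0.02 in control while the cytosolic mean was 7.63 ± 0.02 in overload and 7.64 ± 0.02 in control, whereas in G1-1 both means were lower in overload. No test is given for these scores, since they are made of genes chosen on their values.

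Summed CPM, which weights each gene by its counts, set the G1-1 overload cells further apart. The 8 cytosolic genes summed to 2393 ± 23 CPM in G1-1 overload, 2974 ± 44 CPM in G1-1 non-overload and 3190 ± 68 CPM in G1-1 control libraries. Hspd1 and Hspe1 together made 354 ± 16.2 CPM in G1-1 overload, 361 ± 9.21 CPM in G1-1 non-overload and 389 ± 5.92 CPM in G1-1 control libraries. The mitochondrial sum was therefore about as low in non-overload as in overload cells of G1-1, and the cytosolic sum was not. The cytosolic sum was mostly Hsp90aa1 (849 CPM in G1-1 control) and Hsp90ab1 (1500 CPM), and the mitochondrial sum mostly Hspd1 (346 CPM). The contrast is thus largely between the HSP90 pair and Hspd1. Hspe1 averaged 43 CPM in non-overload, 42.6 CPM in control and 38.6 CPM in overload libraries of G1-1.

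**Figure D3:**
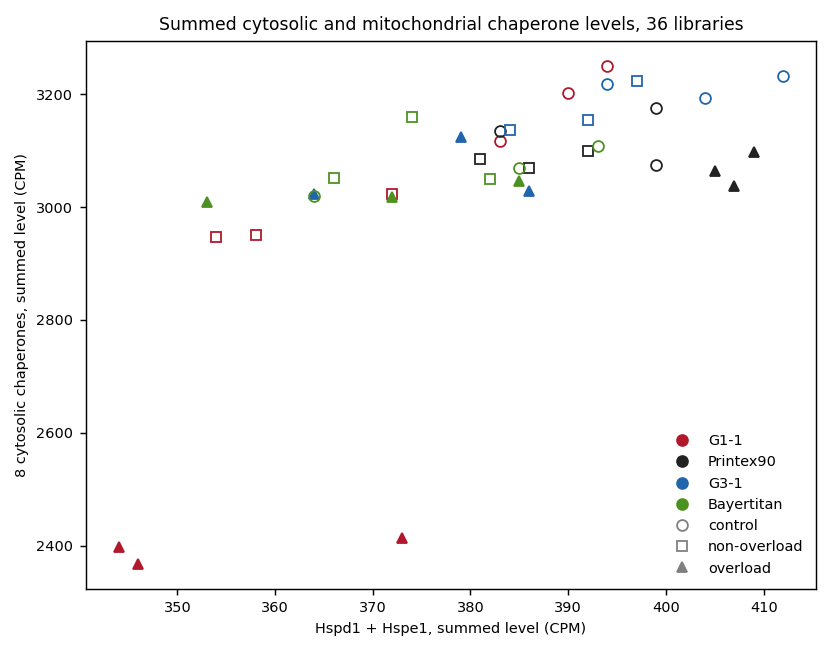
Summed level (CPM) of the 8 cytosolic chaperone genes against that of Hspd1 and Hspe1 in 36 libraries, by particle (colour) and condition (symbol); neither axis starts at 0. The 3 G1-1 overload libraries lie at the bottom, around their mean of 2393 CPM for the cytosolic sum.

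Across the 36 libraries, centred within each particle, pairs of members correlated to different degrees. Hsp90aa1 and Hsp90ab1 correlated at a Pearson r of 0.85 over all 36 libraries and of 0.12 over the 27 libraries without G1-1. Hsp90aa1 and Dnaja1 correlated at 0.88 and, without G1-1, at 0.68. Hsp90aa1 and Hspa4 correlated at 0.79 and, without G1-1, at 0.62. Hspb1 had negative values over the 36 libraries with Hsp90aa1 (-0.56), Hsp90ab1 (-0.41), Hspa4 (-0.69), Hsph1 (-0.51) and Dnaja1 (-0.60), and with Hspa4 it was at -0.57 without G1-1. Dnajb1 lay between -0.28 and 0.20 with the other cytosolic genes. Hspd1 and Hspe1, which share a promoter region, correlated at 0.33 and 0.30. The libraries share their particle's control cultures and the same scaling, and these values are descriptions.

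The genes outside the chaperone lists whose levels were most like the mean of the 8 cytosolic members were ranked among 8833 genes by Pearson r over the 36 centred libraries. They were Psmd12 (0.910), Dnttip2 (0.901), Psmc1 (0.899), Nap1l4 (0.887), Psmd7 (0.884) and Larp7 (0.882). Psmd12, Psmc1 and Psmd7 encode subunits of the regulatory particle of the proteasome, which degrades ubiquitin-tagged proteins. Over the 27 libraries without G1-1 the same r was 0.525 for Psmd12, 0.322 for Dnttip2, 0.480 for Psmc1, 0.681 for Nap1l4, 0.470 for Psmd7 and 0.573 for Larp7. Psmd7 averaged 38.1 CPM in G1-1 overload and 61.5 CPM in G1-1 control libraries. All of these genes were below 0 in G1-1 overload against control, from -0.30 for Nap1l4 to -0.99 for Larp7. The mean is made of members chosen with their G1-1 overload values known, so the ranking is a description.

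Other chaperone genes, with heat shock factors and mitochondrial proteases, were taken from lists that hold no member. The lists were chosen with earlier results of these data known. Most genes named from them had the smallest p in the mean overload response, which contains G1-1 overload. Their p-values are therefore a description as well. Of 77 genes tested, 37 were lower and 6 higher in G1-1 overload than in control by edgeR's quasi-likelihood test, with a median log2 fold change of -0.13, beside the 14.4% lower and 13.7% higher of all genes. Those higher included the heat shock factors Hsf1 and Hsf4 and the proteases Clpx and Spg7, which are not chaperones. For Printex90 5 were lower and 4 higher. For G3-1 and Bayertitan 0 were called by edgeR, with 17 and 5 of 77 at an unadjusted p under 0.05, beside 12.4% and 7.63% of all genes, and DESeq2 called 1 and 0.

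Among the HSP90 co-chaperones, 9 of 11 were lower in G1-1 overload and the other two were not called, with a median log2 fold change of -0.27. Stip1, which bridges HSP70 and HSP90, averaged 70.4 CPM in G1-1 overload and 102 CPM in G1-1 control libraries, a log2 fold change of -0.54 ± 0.06 (edgeR, adjusted p = 2.09e-08). Cdc37, which brings kinases to HSP90, was at -0.60 ± 0.08 (adjusted p = 5.3e-07) and at -0.38 with the epithelial marker level as a covariate, and Ahsa1, which activates its ATPase, at -0.35 ± 0.06 (adjusted p = 1.9e-05). Fkbp4, an immunophilin of steroid receptor complexes, was at -0.28 ± 0.06 but at -0.13 with the epithelial marker level as a covariate, where it was no longer called. Ptges3, the co-chaperone p23, had 190 CPM in both groups.

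Of the 21 other cytosolic HSP70, HSP40 and small heat shock genes and their regulators, 6 were lower and 2 higher, with a median of -0.09. Dnajc2, an HSP40 at the ribosome, averaged 20.8 CPM in G1-1 overload and 39.9 CPM in control libraries, a log2 fold change of -0.94 ± 0.06 (edgeR, adjusted p = 4.13e-13). St13, the HSP70-interacting protein Hip, was at -0.53 ± 0.04 and Bag1, an HSP70 exchange factor, at -0.49 ± 0.05. Bag3, a heat-inducible exchange factor of selective autophagy, rose, with 78.4 CPM in overload and 60.7 CPM in control libraries (0.37 ± 0.05, adjusted p = 2.28e-06 in edgeR), and was singled out after its values were seen. Hspa1l, the other gene called higher, was near 1 CPM, and its call was lost without control replicate 1 (0.57) or 2 (0.87) and without overload replicate 2 (0.78) or 3 (0.69). Hspa1b, the classical stress-inducible HSP70, had 11.8 to 34.7 CPM in G1-1 overload and 8.08 to 16.3 CPM in control libraries. Its groups overlapped, and 0.96 ± 0.37 did not pass the threshold (edgeR, adjusted p = 0.0538). Over the 15 alternative settings Hspa1b lay between 0.48 and 1.69, the highest with the epithelial marker level as a covariate, and was called higher in 6 of them, with an adjusted p of 0.00225 to 0.435. The small heat shock gene Cryab was at -0.64 ± 0.30 and not called. It was at 0.09 with the epithelial marker level as a covariate, but was called lower with the fibroblast marker level as a covariate (-0.77), without the libraries with high collagen (-1.0) and without overload replicate 2 (-0.99).

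In the list of heat shock factors, Hsbp1, which encodes a protein that binds heat shock factor 1, was lower at -0.20 ± 0.05 (edgeR, adjusted p = 0.00176). Hsf1 was called higher at 0.21 ± 0.07 and Hsf4 at 0.35 ± 0.12, and Hsf2 was at -0.07 ± 0.08. The call of Hsf1 was lost without control replicate 3 (0.19), overload replicate 1 (0.19) or overload replicate 3 (0.21), and that of Hsf4 without control replicate 2 (0.33) or 3 (0.26) and without overload replicate 2 (0.32) or 3 (0.33).

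Outside the cytosol, the other mitochondrial chaperones had 3 of 7 genes lower in G1-1 overload and the others not called, with a median of -0.12. Grpel1, the exchange factor of mitochondrial HSP70, was at -0.50 ± 0.06 (edgeR, adjusted p = 2.44e-07) and Hscb, an HSP40 of iron-sulfur cluster assembly, at -0.32 ± 0.08. Dnlz was at -0.27 ± 0.08, and its call was lost without overload replicate 3 (-0.23) and with the epithelial covariate (-0.19). Hspa9, the mitochondrial HSP70 itself, averaged 360 CPM in G1-1 overload and 356 CPM in control libraries. Of the 6 mitochondrial proteases tested, Clpx (0.12 ± 0.04) and Spg7 (0.10 ± 0.04) were called higher. Both calls were lost without any of control replicates 1, 2 and 3 (0.09 to 0.12) and without overload replicate 3 (0.07 for both), and that of Clpx also without overload replicate 1 (0.12).

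In the endoplasmic reticulum 11 of 14 chaperone genes were lower and the others were not called, with a median of -0.22. Hsp90b1, the HSP90 of that compartment, averaged 420 CPM in G1-1 overload and 718 CPM in G1-1 control libraries, a log2 fold change of -0.77 ± 0.03 (edgeR, adjusted p = 2.19e-16). Hspa5, the HSP70 known as BiP, was at -0.31 ± 0.04, Creld2 at -0.50 ± 0.08 and Dnajc3 at -0.41 ± 0.05. The prefoldin subunits, which hand actin and tubulin to the chaperonin TRiC, had 4 of 6 genes lower and the others not called, with Pfdn6 at -0.61 ± 0.08 and Pfdn2 at -0.58 ± 0.08. Of the 8 TRiC subunits, 3 were lower and the others were not called, with a median of -0.11. Cct3 was at -0.15 ± 0.04, while Cct6a (-0.18 ± 0.06) and Tcp1 (-0.16 ± 0.06) were at -0.06 and -0.03 with the epithelial covariate. The calls of Cct6a and Tcp1 were lost without overload replicate 3 (-0.15 for Cct6a and -0.12 for Tcp1), and that of Tcp1 also without control replicate 2 (-0.16) or 3 (-0.15). Beyond G1-1, DESeq2 called 1 TRiC subunit higher and 4 lower in the mean overload response, and 1 higher and 0 lower in Printex90 overload.

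**Figure D4:**
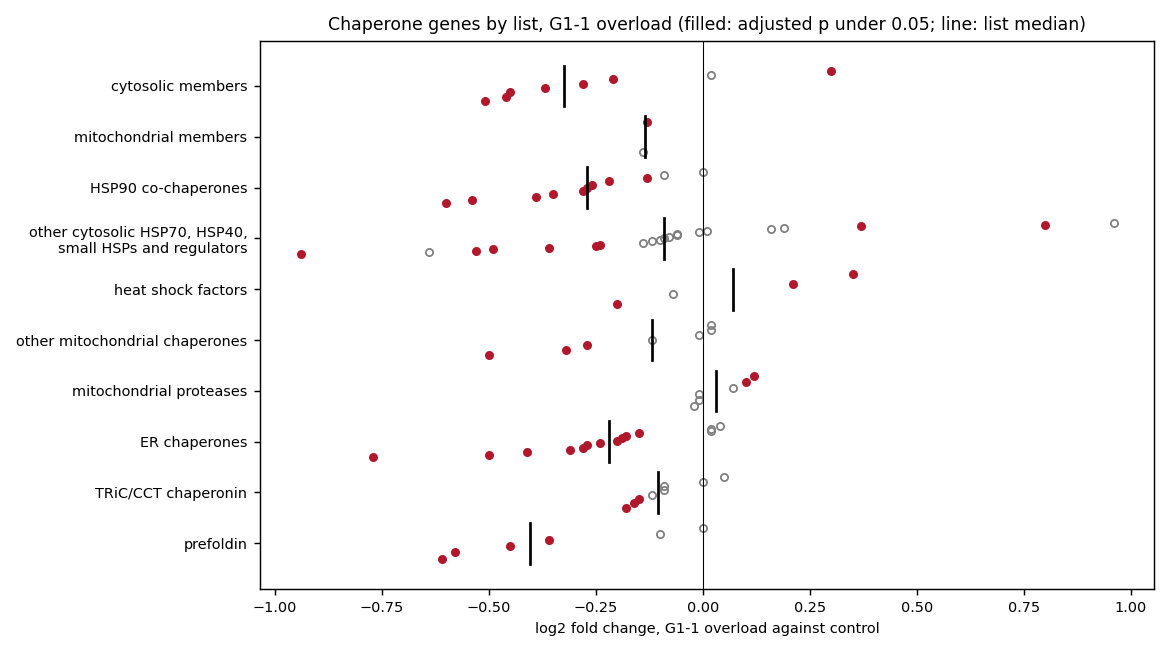
Log2 fold change, G1-1 overload against control, of each gene by chaperone list, with filled points for an adjusted p under 0.05 in edgeR, open points for the others and a black line at the list's median. Most called genes lie left of 0, among them 9 of 11 HSP90 co-chaperones and 11 of 14 chaperones of the endoplasmic reticulum.

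Reads of several members can be shared with copies of their coding sequence. RefSeq names 33 pseudogenes of Hspa8, 23 of Hsp90ab1, 20 of Hspd1, 16 of Hsp90aa1, 4 of Dnaja1 and 1 of Hspe1, and none of these had a row in the table. The sources used here do not say how reads that fit a gene and its copy were counted, so the levels of these 6 genes are uncertain in that respect.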

How the data were processed

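The deposited values were the authors' expected counts, in 1 table of 23487 genes by 36 libraries. The submitters' processing notes name Salmon, FastQC, MultiQC and, as the build, Rnor_6.0, without versions or roles. Of the values, 30.5% had decimals, and they were rounded to whole numbers. All 36 columns were matched to samples by their names, the control columns having CT where the labels have CTL. The test was edgeR's quasi-likelihood test (version 4.0.16, R 4.3.3) after TMM scaling and filterByExpr (minimum count 10, minimum total 15). All 36 libraries entered one model with a term for each group, which left 24 residual degrees of freedom. Calls were made under an adjusted p of 0.05 (Benjamini-Hochberg, over the 14606 genes tested). The SE of a log2 fold change is its size divided by the square root of the F statistic. Log2 CPM used a prior count of 2. DESeq2 1.42.0 was an alternative.

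The members, the lists and the tests were chosen with earlier results of these data known. All members were reported, with up to 4 called genes of each other list, by the smallest p in the mean overload response, any gene of a list with 5 or fewer called, and the 6 genes most like the cytosolic mean among those with at least 10 CPM. Where the text names others, it was after their values were seen. Of the genes picked by p, Cct5, Cct2 and Pfdn1 are not described in the text. Hspa1a was not analysed here, and Yme1l1 did not pass the filter.

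Over the 36 pairs of replicates, chi-square divided by its degrees of freedom was 3.71 to 35.4, so every library was counted on its own. The common biological coefficient of variation was 0.103. Same-numbered libraries of a particle's groups had correlated deviations above 0.1 in 9 of 36 pairs (-0.247 to 0.542). In Printex90 non-overload against control every pair did (0.21, 0.43 and 0.433). In G3-1 overload against control the values were 0.22, 0.0993 and 0.542. Pairs of unlike number ran from -0.522 to 0.468 in that G3-1 comparison and from -0.378 to -0.0378 in Printex90 non-overload against control. The labels do not say that equal numbers mark pairs, and the main fit used no pairing. The scripts were tested on simulated counts. The all-gene median log2 fold change was at most 0.02 from 0 in each comparison.

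Promoter windows came from RefSeq's GRCr8 table, searched for exact letters. The builds differ, so no other coordinates are used.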

Additional observations from a re-analysis of the deposited data

Results flagged for a closer look

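The overload responses of several members differed between particles by the test of the difference itself in edgeR's quasi-likelihood fit (adjusted p under 0.05). The genes were chosen with their G1-1 overload values known, so these tests are no independent evidence. Values are G1-1 minus the other particle on the log2 scale, with SE. Against Printex90 the difference was -0.45 ± 0.06 for Hsp90aa1, -0.45 ± 0.05 for Hsp90ab1, -0.36 ± 0.05 for Hsph1, -0.29 ± 0.08 for Dnaja1, -0.22 ± 0.06 for Hspa4, -0.31 ± 0.10 for Hspa8 and -0.18 ± 0.05 for Hspd1. Against G3-1 it was -0.35 ± 0.06 for Hsp90aa1, -0.47 ± 0.05 for Hsp90ab1 and -0.31 ± 0.05 for Hsph1. Against Bayertitan it was -0.45 ± 0.06 for Hsp90aa1, -0.49 ± 0.05 for Hsp90ab1, -0.31 ± 0.05 for Hsph1, -0.30 ± 0.08 for Dnaja1 and -0.31 ± 0.10 for Hspa8.

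The calls of Hspa8 and Hspd1 depended on single libraries. For Hspa8 against Printex90 the call was lost without G1-1 control replicate 1 (-0.30) or 3 (-0.32), G1-1 overload replicate 2 (-0.24), Printex90 control replicate 2 (-0.32) or 3 (-0.31), or Printex90 overload replicate 2 or 3 (both -0.29). For Hspa8 against Bayertitan it was lost without G1-1 control replicate 1 (-0.29) or 3 (-0.31), G1-1 overload replicate 1 (-0.32) or 2 (-0.23), Bayertitan control replicate 1 (-0.30) or 2 (-0.28), or Bayertitan overload replicate 1 (-0.26) or 2 (-0.32). For Hspd1 against Printex90 it was lost without G1-1 overload replicate 2 (-0.16) or 3 (-0.15), Printex90 control replicate 2 (-0.15) or Printex90 overload replicate 3 (-0.17).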

How the results depend on the processing

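In G1-1 overload against control, 6 to 8 members were called over the 15 alternatives, and Hsp90aa1, Hsp90ab1, Hsph1, Dnaja1, Hspa4 and Hspa8 kept their call and sign in every one, while Hspb1 kept its call in 11 and Hspd1 in 12. Leaving out each library in turn gave 6 to 8 members called there, 4 to 5 in G1-1 overload against non-overload, 0 to 1 in G1-1 non-overload against control, 5 to 7, 3 to 4 and 4 to 5 in G1-1 minus Printex90, minus G3-1 and minus Bayertitan, 7 in the mean overload and 1 in the mean non-overload response, and 0 in each other comparison. With the fibroblast marker level as a covariate, 1 member was called in Printex90 and 1 in G3-1 overload (Hsph1 in both) and 2 in G1-1 non-overload. With the epithelial marker level as a covariate, Hsph1 was the 1 member called in overload of Printex90, of G3-1 and of Bayertitan and in Bayertitan non-overload. With the G1-1 libraries alone, 0 were called in G1-1 non-overload. DESeq2 called 1 in G3-1 and 1 in Bayertitan overload, 3 in G1-1 non-overload and 2 in the mean non-overload response. The cause of these changes was not tested.

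As the log2 ratio of summed CPM, the cytosolic to mitochondrial level was 2.76 in overload, 3.04 in non-overload and 3.04 in control libraries of G1-1, 2.91, 3.0 and 2.99 in those of Printex90, 3.02, 3.02 and 2.99 in those of G3-1 and 3.03, 3.05 and 3.01 in those of Bayertitan.

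Over all genes, the count called moved by more than 1.5 times in many comparisons, and some of these settings are given here. In G1-1 non-overload it was 67, and 3 to 36 with a library left out, 200 with the fibroblast and 127 with the epithelial covariate, 180 with DESeq2 and 0 with G1-1 alone. In Printex90 overload it was 2155, and 997 without overload replicate 1, 1327 with the epithelial covariate and 1373 with Printex90 alone. In G3-1 overload it was 83, and 26 to 233 with a library left out, 0 without the libraries with high collagen, 147 with the fibroblast covariate, 208 with DESeq2 and 1 with G3-1 alone. In Bayertitan overload it was 48, and 3 to 19 with a library left out, 75 with the replicate block, 121 with the epithelial covariate, 86 without the libraries with high collagen and 126 with DESeq2. In Printex90 and Bayertitan non-overload it was 30 and 49, and 9 to 27 and 1 to 21 with a library left out. With the epithelial covariate these 2 counts were 130 and 289. In G3-1 overload against non-overload it was 4, and 988 with the fibroblast covariate, 318 without the libraries with high collagen and 59 with the epithelial covariate. In Printex90 overload against non-overload it was 513, and 158 without overload replicate 1. The mean overload response had 4660, and 2950 with the epithelial covariate. G1-1 minus G3-1 had 1355, and 2513 with the epithelial covariate and 787 without the libraries with high collagen. Printex90 minus G3-1 had 94, and 347 with the epithelial covariate. Printex90 minus Bayertitan had 173, and 93 to 317 with a library left out.

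The labels do not say that equal replicate numbers mark pairs, and the main fit used no replicate block. In Printex90 non-overload the block called 0 of the 10 members, as without it, and 35 genes against 30. In the other comparisons any pairing is likewise unknown. With the replicate block 8 members were called in G1-1 overload against control and 1 in G1-1 non-overload against control, and Hspa4 became called in G1-1 minus Bayertitan.

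Of the values that changed sign, only that of Tcp1 in the mean overload response had been called. With the epithelial covariate the log2 values became 0.05 for Hsp90aa1, -0.09 for Hspa8, 0.03 for Dnaja1 and 0.03 for Dnajb1 in Printex90 overload against control, -0.01 for Hspa8, 0.01 for Dnaja1 and 0.03 for Dnajb1 in Printex90 overload against non-overload, 0.09 for Cryab in G1-1 overload, 0.03 for Dnajb1 and 0.00 for Tcp1 in the mean overload response, -0.01 for Hsph1 in Printex90 minus G3-1, and -0.10 for Hspa8, -0.03 for Hsph1 and 0.09 for Dnaja1 in Printex90 minus Bayertitan. With the fibroblast covariate Dnaja1 became 0.00 in G3-1 non-overload. Without the libraries with high collagen, Hsp90aa1 became 0.07 and Dnaja1 0.04 in G3-1 non-overload, Hspd1 0.04 and Hspe1 0.05 in G1-1 minus G3-1, and Hsf1 0.03 in the mean overload response. With 1 library left out, Hsph1 became 0.01 in Printex90 non-overload (without control replicate 3), Hspa8 0.04 in G3-1 overload and non-overload (without control replicate 3; -0.08 to 0.04 over all libraries left out), Hspb1 0.07 in G3-1 non-overload (without control replicate 3; -0.11 to 0.07), Hspe1 -0.05 in Bayertitan non-overload (without control replicate 1; -0.05 to 0.17) and 0.08 in G3-1 minus Bayertitan (without Bayertitan control replicate 1; -0.16 to 0.08), and Hspe1 0.11 in Bayertitan overload against control (-0.13 to 0.11) and 0.03 against non-overload (-0.16 to 0.03), both without overload replicate 1.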
